A study of Homo sapiens with 21 samples.

Results

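The genes described here encode the 7 inhibitors of cyclin-dependent kinases (CDKN1A, CDKN1B and CDKN1C of the CIP/KIP family and CDKN2A, CDKN2B, CDKN2C and CDKN2D of the INK4 family) and the 3 GADD45 stress proteins (GADD45A, GADD45B and GADD45G). They were chosen by gene symbol, and all 10 were found among the 58735 genes of the RNA-seq table. Transcripts were measured in MDA-MB-453, an established human breast cancer cell line, in 21 libraries of 7 groups with 3 replicates each. Wild-type cells were left untreated (control) or were treated for 24 h with 10 mM calcium, 10 µM cadmium, 5 µM GSK4716, or 10 µM DES. In 2 further groups, DES at 10 µM was added 3 h before 10 mM calcium (DES+calcium) or 10 µM cadmium (DES+cadmium). GSK4716 is a synthetic agonist and DES (diethylstilbestrol, also a synthetic estrogen) an antagonist of the orphan nuclear receptor ESRRB, and the study asked which transcripts the metals change through this receptor. GSK4716 and DES were dissolved in ethanol, and the control is labelled as having had no treatment. Calcium and GSK4716 were given in IMEM lacking serum, and cadmium in medium with 1% charcoal-stripped serum, whereas a single control group was sequenced, so medium and treatment cannot be told apart. Nothing in the labels says that the 3 replicates of a group came from separate cultures, so p-values measure only the spread between these libraries.

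In the deposited annotation (GRCh38.p14), CDKN2A (ENSG00000147889) and CDKN2B (ENSG00000147883) lie side by side on the minus strand, at chr9:21967753-21995301 and chr9:22002903-22009363, and GADD45G (ENSG00000130222) lies at chr9:89605013-89606555 on the plus strand. CDKN2C (ENSG00000123080) and GADD45A (ENSG00000116717) are on the plus strand of chromosome 1, at chr1:50960745-50974633 and chr1:67685061-67688338. GADD45B (ENSG00000099860, chr19:2476122-2478259, plus strand) and CDKN2D (ENSG00000129355, chr19:10566462-10569059, minus strand) share chromosome 19. CDKN1A (ENSG00000124762) lies at chr6:36676460-36687339 and CDKN1B (ENSG00000111276) at chr12:12715058-12722371, both on the plus strand, and CDKN1C (ENSG00000129757) at chr11:2883213-2885773 on the minus strand.

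Cyclin-dependent kinases drive the cell cycle when bound by a cyclin. CIP/KIP proteins bind cyclin and kinase complexes broadly, whereas INK4 proteins bind CDK4 and CDK6 and keep D-type cyclins from activating them, which holds the RB protein in its growth-restraining state. GADD45 proteins are small stress-induced proteins that bind PCNA, CDK1 and the kinase MAP3K4, and link DNA damage and other stress to growth arrest, repair and signaling through p38 and JNK. CDKN1A is the classic p53 target, CDKN1B mediates arrest on mitogen withdrawal, CDKN2B is induced by TGF-beta, and the CDKN2A gene encodes both p16INK4a and p14ARF, which gene-level values do not separate.

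Values are FPKM, fragments scaled to gene length and library size, and can be compared between genes because they are per length. The libraries held 14435925 to 28424805 fragments on genes. The fragments behind a single value of a gene ranged from 281 to 7348 for CDKN1A, from 51 to 2576 for GADD45G and from 0 to 165 for CDKN1C, the scarcest of the 10 transcripts. All 10 genes passed the filter on low values, a mean of at least 0.5 FPKM over the 21 libraries. The cells carried luminal markers, with KRT8 at 146 to 726 FPKM and FOXA1 at 53.2 to 223 FPKM, while ESR1 and PGR stayed at or below 0.123 and 0.156 FPKM. Of 4 markers of other cells, PTPRC, PECAM1 and COL1A2 stayed at or below 0.079, 0.218 and 0.0617 FPKM, while COL1A1 was at 9.34 to 32.7 FPKM. Control replicate 3 stood apart in HMOX1, an oxidative stress gene, at 349 FPKM against 11.6 and 5.20 FPKM in the other 2 control libraries. GSK4716 replicate 3 also stood apart, at 1040 FPKM against 169 and 49.7 FPKM in replicates 1 and 2. The cadmium libraries correlated less with their own group (mean r of 0.886 to 0.921) than those of the control (0.947 to 0.956), and cadmium replicate 1 had the lowest level of 6 of the 10 genes in its group, although the metallothionein MT2A, a metal-induced gene, reached 2000, 2290 and 4090 FPKM in cadmium replicates 1, 2 and 3 against 24.1 to 92.7 FPKM in the control. Cadmium replicate 3 correlated least with its group. Lower correlations than in the control were not particular to cadmium. The calcium, DES and DES+calcium libraries lay at 0.908 to 0.929 and the DES+cadmium libraries at 0.875 to 0.905. MT2A was at 10200, 1840 and 5490 FPKM in DES+cadmium replicates 1, 2 and 3. In bulk RNA, fewer cells with a transcript and less of it in each cell cannot be told apart.

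The promoters of CDKN1A, CDKN2B, GADD45B and GADD45G are shown. Each of these genes passed the test with calcium or with DES, as did others of the 10. RefSeq windows of GRCh38.p14 covered 8 of the 10 genes. CDKN1C and GADD45A had none. Each sequence runs 5′ to 3′ on the strand of the gene, ends at or just before the start site and leaves out bases that the annotations place in an exon. The CDKN1A window lies in an intron of longer CDKN1A transcripts. Capitals mark matches to GGGCGG (the GC box) or TGCGCNC (the core of the metal response element) on either strand. The positions are chr6:36678464-36678709 on the plus strand for CDKN1A, chr9:22009364-22009555 on the minus strand for CDKN2B, chr19:2475877-2476121 on the plus strand for GADD45B and chr9:89604762-89605011 on the plus strand for GADD45G.
CDKN1A: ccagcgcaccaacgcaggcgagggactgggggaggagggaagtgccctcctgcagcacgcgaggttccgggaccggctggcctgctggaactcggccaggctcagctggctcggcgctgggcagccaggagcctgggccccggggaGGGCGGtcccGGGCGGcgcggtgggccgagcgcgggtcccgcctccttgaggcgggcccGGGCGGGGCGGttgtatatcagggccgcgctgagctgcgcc
CDKN2B: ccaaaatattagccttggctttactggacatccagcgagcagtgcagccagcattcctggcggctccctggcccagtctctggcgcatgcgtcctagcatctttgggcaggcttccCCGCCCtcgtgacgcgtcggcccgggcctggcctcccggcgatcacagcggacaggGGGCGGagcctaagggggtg
GADD45B: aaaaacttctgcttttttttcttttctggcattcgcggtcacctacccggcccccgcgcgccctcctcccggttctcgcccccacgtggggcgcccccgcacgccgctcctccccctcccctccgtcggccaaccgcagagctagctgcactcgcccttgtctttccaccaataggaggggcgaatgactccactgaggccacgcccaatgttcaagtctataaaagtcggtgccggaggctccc
GADD45G: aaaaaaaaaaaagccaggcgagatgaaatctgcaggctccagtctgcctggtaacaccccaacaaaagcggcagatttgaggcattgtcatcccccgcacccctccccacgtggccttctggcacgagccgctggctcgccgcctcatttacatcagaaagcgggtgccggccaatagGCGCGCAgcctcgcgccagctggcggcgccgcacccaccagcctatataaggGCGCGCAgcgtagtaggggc

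GC box letters occurred 4 times in the CDKN1A window and in 2 places in the CDKN2B window, and 42.6% of all 35116 windows of 250 bases held at least 1 match. GADD45G held 2 matches to the metal response element core and 1 CDKN2A window held 1, against 16.8% of all windows with at least 1. No window of the 8 genes held the estrogen-related receptor element TNAAGGTCA, which 0.854% of all windows held, nor the AP-1 letters TGANTCA (6.57%), the cyclic AMP element TGACGTCA (1.65%) or the ATF4 and C/EBP composite element TGATGNAAT (0.888%). The heat shock letters GAANNTTC (5.78% of all windows) occurred once among the 8 genes, in CDKN2D. A match is a description of letters and not a site of binding.

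In untreated cells, CDKN1B was the most abundant of the 10 transcripts at 45.1 ± 3.19 FPKM (SD, n = 3), followed by GADD45A at 13.0 ± 0.87, CDKN2D at 12.5 ± 2.34 and CDKN1A at 10.7 ± 2.78 FPKM. The ranges of GADD45A, CDKN2D and CDKN1A overlapped. CDKN2C had 8.11 ± 1.14, CDKN2A 4.90 ± 1.24, GADD45B 3.58 ± 0.226 and GADD45G 2.86 ± 1.53 FPKM, and CDKN2B at 0.837 ± 0.166 and CDKN1C at 0.264 ± 0.0542 FPKM were the scarcest. CDKN1B thus made up 54.9% ± 3.63 of the summed FPKM of the 7 inhibitors in control cells, and CDKN1A 12.9% ± 2.77. This order was different with calcium, where CDKN1A held 57.4% ± 10.2 of the sum and CDKN1B 30.5% ± 7.07. The 3 GADD45 genes together had 19.4 ± 2.34 FPKM in control cells, 49.2 ± 6.66 with calcium, 93.5 ± 67.3 with cadmium, 38.5 ± 7.50 with GSK4716 and 206 ± 20.0 with DES.

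The 3 GADD45 genes rose with DES, with the largest log2 fold changes of the 10 genes in this comparison. GADD45B was at 3.39, 3.83 and 3.54 FPKM in the control libraries and at 56.4, 56.3 and 74.4 FPKM in the DES libraries. The groups lay far apart, with a log2 fold change of 4.07 (SE 0.16, limma adjusted p = 6.58e-05), or 16.8-fold. GADD45G went from 1.94, 2.01 and 4.62 FPKM to 50.7, 50.0 and 56.9 FPKM. Its DES libraries were close to each other and all above the control, with a log2 fold change of 4.27 (SE 0.33, limma adjusted p = 0.000516). GADD45A, which was already well expressed in the control at 12.1, 13.0 and 13.8 FPKM, reached 83.9, 91.4 and 97.3 FPKM. That is 6.94-fold (log2 fold change 2.80, SE 0.14, limma adjusted p = 0.000152). All fold changes are on log2(FPKM + 0.1), adjusted over 14686 genes by the Benjamini-Hochberg method. These 3 calls held in every alternative tried, including each library left out in turn.

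**Figure D1:**
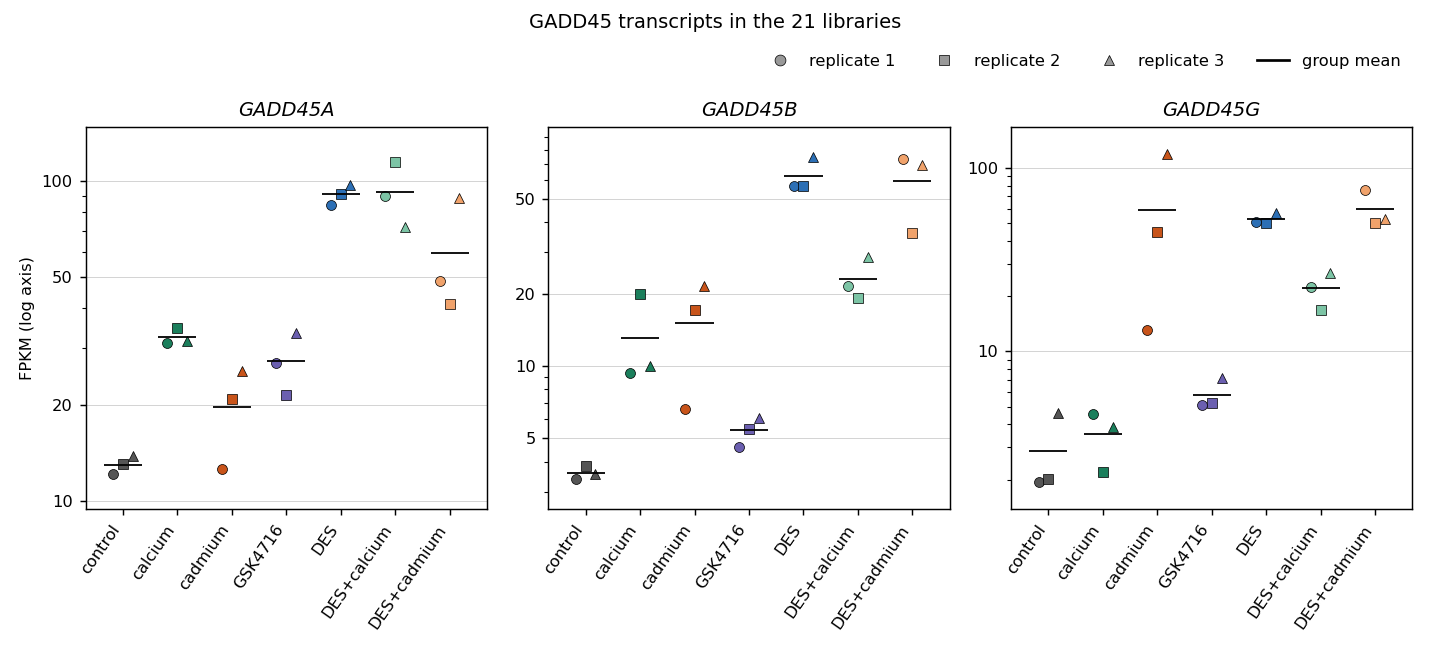
FPKM of GADD45A, GADD45B and GADD45G (log axis) in each of the 21 libraries by group; points are libraries, their shape gives the replicate, and bars are means of 3. GADD45A is higher in the 9 libraries with DES (41.3 to 115 FPKM) than in the other 12, GADD45B with DES+calcium (19.3 to 28.6 FPKM) overlaps calcium and cadmium alone, and GADD45G spreads from 13.0 to 119 FPKM with cadmium alone.

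With calcium, GADD45A and GADD45B rose and GADD45G did not pass the test. GADD45A stood at 31.2, 34.7 and 31.7 FPKM, above every control library and with little spread (log2 fold change 1.32, SE 0.10, limma adjusted p = 0.00852), and the call was lost without control replicate 1 (limma adjusted p = 0.056). GADD45B was at 9.37, 20.0 and 10.0 FPKM, also clear of the control (1.76, SE 0.30, limma adjusted p = 0.0285), a call that held without calcium replicate 2 and was lost with any other library left out and with the block (limma adjusted p = 0.0603). GADD45G was at 4.57, 2.21 and 3.85 FPKM and overlapped the control. The 95% interval of its log2 fold change with calcium ran from -0.69 to 1.40.

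With cadmium, GADD45G had the highest levels of the family, and no GADD45 gene passed the test. GADD45G was at 13.0, 44.7 and 119 FPKM in the 3 cadmium libraries. Each of them was above every control library, but they differed 9.11-fold from each other, and the log2 fold change of 3.92 had an SE of 0.81 (limma adjusted p = 0.0725). GADD45B was at 6.64, 17.1 and 21.5 FPKM, also above the control in all 3 libraries (1.88, SE 0.43, limma adjusted p = 0.0847). GADD45A was at 12.6, 20.8 and 25.4 FPKM, and its lowest library lay within the control range. The values depended on which cadmium library was left out. Without replicate 1, which had the lowest level of all 3 genes, the log2 fold change was 4.74 for GADD45G (limma adjusted p = 0.0264) and 2.39 for GADD45B (limma adjusted p = 0.024). Without replicate 3, which had the highest level of all 3 genes, it was 3.15 for GADD45G (limma adjusted p = 0.0997) and 1.55 for GADD45B (limma adjusted p = 0.132). In the fit of all 7 groups, GADD45G (limma adjusted p = 0.000517) and GADD45B (limma adjusted p = 0.00627) were called.

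With GSK4716, the GADD45 genes lay above the control and none passed the test. GADD45A was at 26.9, 21.5 and 33.6 FPKM, above the control in each library (log2 fold change 1.05, SE 0.17, limma adjusted p = 0.139). GADD45B at 4.60, 5.48 and 6.10 FPKM and GADD45G at 5.09, 5.20 and 7.11 FPKM were also above the control without overlap, with log2 fold changes of 0.57 and 1.10. The recovered-fragment fit with limma-voom called GADD45A (1.06, adjusted p = 0.0454).

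Among the CIP/KIP genes, CDKN1A, which encodes the broad kinase inhibitor p21, had the largest change with calcium of the 10 genes. It was at 7.48, 12.6 and 11.9 FPKM in the control and at 57.9, 129 and 108 FPKM with calcium. The calcium libraries stood highest in the study, with DES+cadmium replicate 3 level with the lowest of them at 57.9 FPKM. The log2 fold change was 3.15 (SE 0.35, limma adjusted p = 0.012), or 8.88-fold, and the call was lost without control replicate 1 (limma adjusted p = 0.0564) or 2 (limma adjusted p = 0.0588). With DES, CDKN1A was at 13.7, 18.7 and 35.9 FPKM, each above the control, with a log2 fold change of 1.01 (SE 0.38, limma adjusted p = 0.0828). Cadmium gave 5.07, 25.3 and 25.4 FPKM, so that replicate 1 lay below the control and the other 2 above it. GSK4716 gave 15.4, 9.73 and 22.9 FPKM and overlapped the control.

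CDKN1B, which encodes p27, had group means from 38.6 FPKM with cadmium to 72.1 FPKM with DES+calcium, and limma called it in no comparison that used every library of both groups. DES+calcium against calcium was called by limma-voom (log2 fold change 0.54, adjusted p = 0.0494) and by limma without DES+calcium replicate 3 (0.71, adjusted p = 0.0204), and DES against control without DES replicate 1 (0.62, limma adjusted p = 0.0336). Among the single treatments, its largest difference from the control was with DES, at 57.9, 79.8 and 60.2 FPKM against 45.5, 48.1 and 41.7 FPKM (log2 fold change 0.53, SE 0.17, limma adjusted p = 0.0558). A sense-intronic transcript gene, AC008115.3, lies within CDKN1B on the same strand and had a mean of 14.7 FPKM, so reads of the shared 549 bases could belong to either gene.

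CDKN1C, which encodes p57, was scarcest in the control, calcium and GSK4716 groups and rose with DES. The control libraries had 0.325, 0.248 and 0.220 FPKM, from 26, 13 and 9 fragments. The DES libraries had 0.928, 0.991 and 4.02 FPKM, from 52, 46 and 165 fragments, so that 1 library was 4.33 times the lowest. The log2 fold change was 2.20 (SE 0.58, limma adjusted p = 0.0288), and it fell to 1.09 with a pseudocount of 1 (limma adjusted p = 0.0576). The call was also lost with no filter (limma adjusted p = 0.0598) and without control replicate 1, 2 or 3 or DES replicate 2. Without DES replicate 3, the highest library, the log2 fold change was 1.55 (limma adjusted p = 0.0237). Calcium replicate 2 held 0 fragments, which allows up to 0.0692 FPKM (3 fragments, counting error only). With cadmium, CDKN1C was at 0.732, 1.65 and 0.982 FPKM (log2 fold change 1.68, SE 0.35, limma adjusted p = 0.0727), and its limma adjusted p was 0.0376 without cadmium replicate 1, 0.201 without replicate 2 and 0.111 without replicate 3.

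The INK4 genes moved in different directions. CDKN2B (p15) rose with calcium, from 0.648, 0.910 and 0.954 FPKM to 3.64, 1.99 and 5.23 FPKM. Each calcium library exceeded each control library, and the log2 fold change was 1.90 (SE 0.38, limma adjusted p = 0.0419). This call held without calcium replicate 2 and was lost with any other library left out, with no filter (limma adjusted p = 0.0655) and with the block (limma adjusted p = 0.0922). CDKN2C (p18) fell with calcium, from 8.11, 9.24 and 6.97 FPKM to 2.46, 1.09 and 1.29 FPKM, again without overlap. Its log2 fold change of -2.34 (SE 0.32, limma adjusted p = 0.0176) was called, and the call was lost without control replicate 1 or 2 or calcium replicate 2 and with the block (limma adjusted p = 0.057). The other INK4 genes did not pass the test with calcium. CDKN2A was at 4.28, 4.56 and 3.04 FPKM and CDKN2D at 8.29, 9.97 and 11.9 FPKM, and both overlapped the control.

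With cadmium, all 4 INK4 genes differed from the control without overlap, and limma called none of them, while limma-voom called CDKN2C (log2 fold change -2.53, adjusted p = 0.0426). CDKN2D (p19) was at 30.4, 40.9 and 17.1 FPKM against 9.96, 12.9 and 14.6 FPKM (log2 fold change 1.16, SE 0.34, limma adjusted p = 0.114), its highest group mean, although replicate 3 overlapped the DES libraries. CDKN2B was at 1.18, 3.61 and 6.24 FPKM (1.75, SE 0.59, limma adjusted p = 0.141). CDKN2C was at 3.83, 0.933 and 0.752 FPKM (-2.43, SE 0.58, limma adjusted p = 0.0888), with replicate 1 nearest the control for both genes. CDKN2A was at 2.44, 1.83 and 2.05 FPKM against 5.09, 6.05 and 3.58 FPKM, its lowest level in the study (-1.16, SE 0.25, limma adjusted p = 0.0744). Without cadmium replicate 1 the log2 fold change was 2.39 for CDKN2B (limma adjusted p = 0.0298), -3.12 for CDKN2C (limma adjusted p = 0.0236) and -1.26 for CDKN2A (limma adjusted p = 0.0496). Without replicate 3 it was 1.23 for CDKN2B (limma adjusted p = 0.23), -2.02 for CDKN2C (limma adjusted p = 0.145) and -1.15 for CDKN2A (limma adjusted p = 0.12). In the fit of all 7 groups, which share 1 estimate of the spread, the 4 genes were called, with limma adjusted p-values from 0.0207 (CDKN2C) to 0.0435 (CDKN2B).

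With DES, CDKN2A was at 9.35, 7.36 and 8.71 FPKM and above the control in each library, a log2 fold change of 0.80 (SE 0.23, limma adjusted p = 0.0374). Leaving out control replicate 1 or 3, or any of the 3 DES replicates, ended this call, as did no filter (limma adjusted p = 0.0734), scaling by total fragments (log2 fold change 0.63, limma adjusted p = 0.0866), all 7 groups in 1 fit (limma adjusted p = 0.0529) and the block (limma adjusted p = 0.0706). CDKN2D was at 19.2, 16.9 and 28.4 FPKM, above the control without overlap (0.76, SE 0.24, limma adjusted p = 0.0512). CDKN2B at 0.773, 1.71 and 2.22 FPKM and CDKN2C at 9.43, 4.54 and 5.08 FPKM overlapped the control. With GSK4716, CDKN2B was at 1.91, 1.37 and 1.77 FPKM (0.93, SE 0.22, limma adjusted p = 0.177) and CDKN2C at 6.22, 4.45 and 6.20 FPKM (-0.53, SE 0.18, limma adjusted p = 0.245). Both lay outside the control range in the direction seen with calcium. The study's own test on read counts listed CDKN2B as higher with calcium, cadmium and GSK4716. The antisense gene CDKN2B-AS1 overlaps CDKN2B over 6461 bases and CDKN2A over 524 bases, and stayed at or below 0.206 FPKM. The labels name a directional and a non-directional library chemistry, so the strand of the reads is not known.

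**Figure D2:**
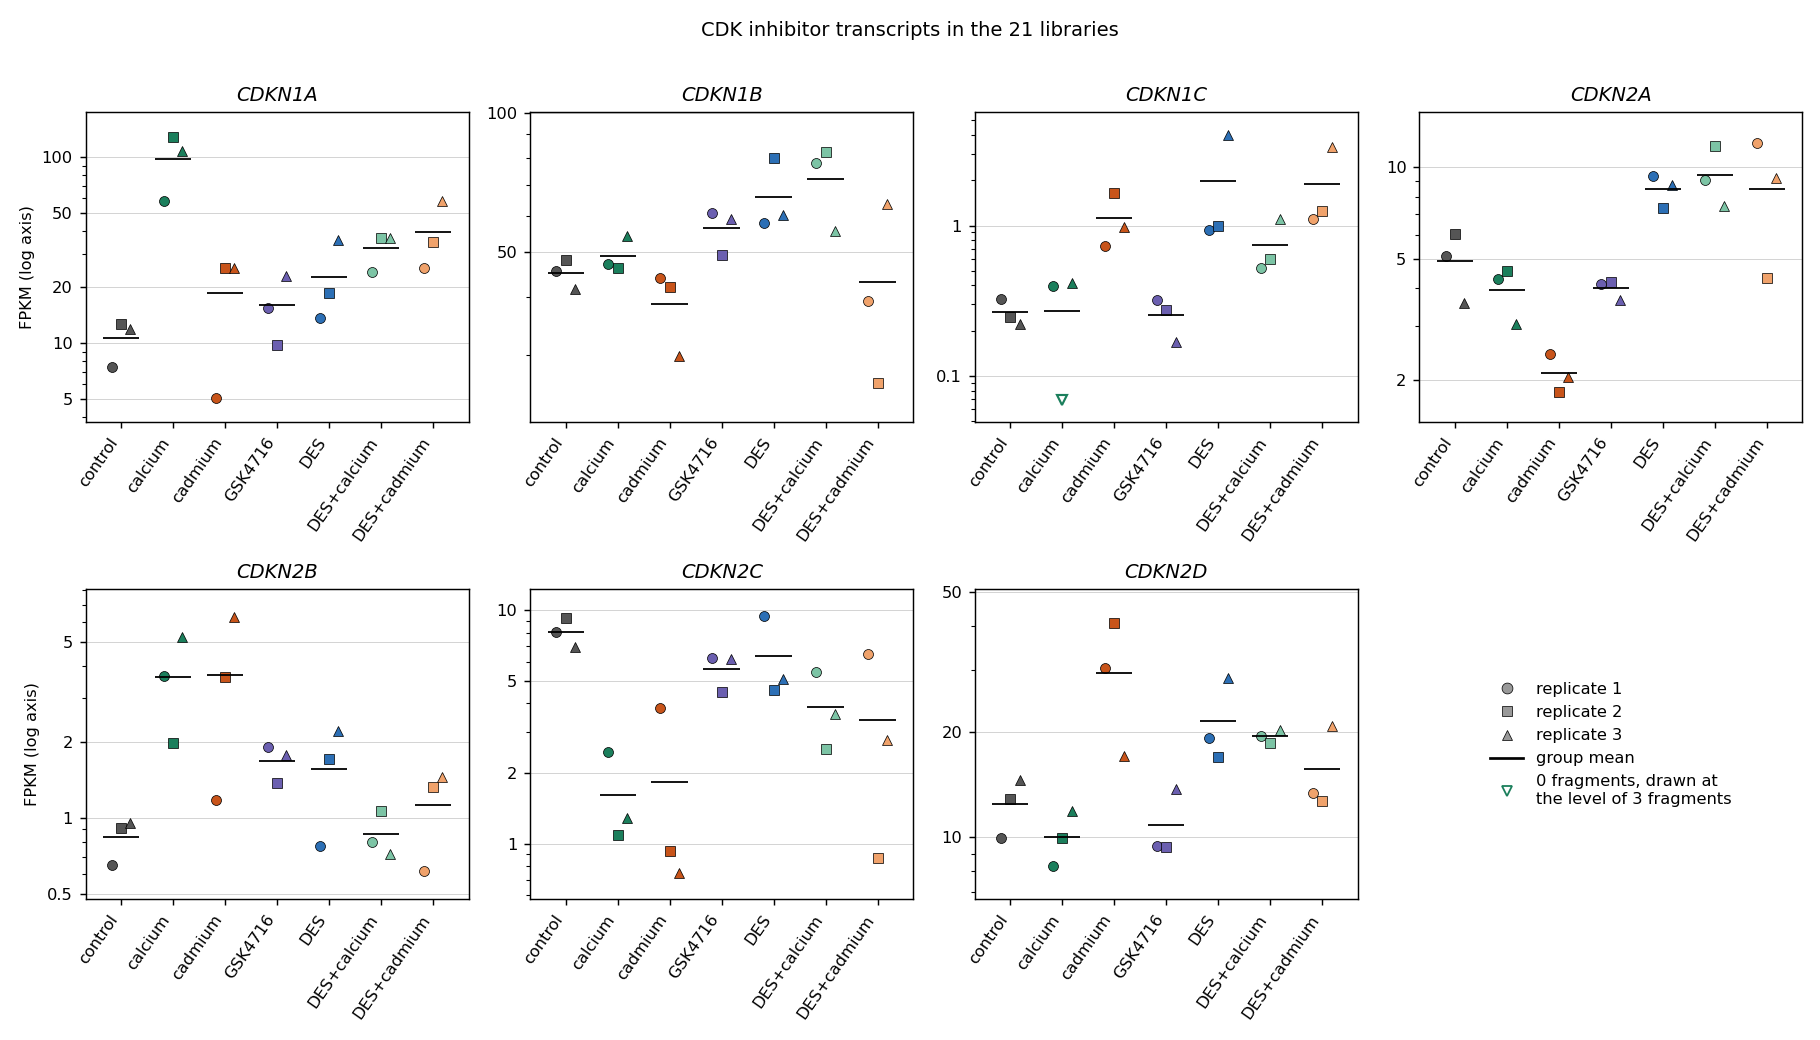
FPKM of the 7 CDK inhibitor genes (log axis) in each of the 21 libraries by group; points are libraries, their shape gives the replicate, and bars are means of 3, and the open triangle is a library with 0 fragments drawn at the level of 3 fragments. CDKN1A peaks with calcium at 57.9 to 129 FPKM, CDKN2C is lowest with calcium and in cadmium replicates 2 and 3 and DES+cadmium replicate 2, and CDKN2A is lowest with cadmium.

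Counted over the 10 genes, calcium called 5 against the control, 4 higher and 1 lower, where 7.12% of all genes tested were called, 4.6% higher and 2.53% lower. The groups did not overlap for the same 5 genes, against 29.6% of all genes. Without control replicate 1 none of the 10 genes and 7 of all genes were called, and without control replicate 2 GADD45A and 46 of all genes, while leaving out any other library gave 3 or 4 of the 10 and 285 to 758 of all genes. For CDKN1A the log2 fold change was 2.92 and 3.29 without control replicates 1 and 2. Cadmium called 0 of 10, where 0.15% of all genes were called by limma. Of the 10, 7 had an unadjusted p under 0.05, against 25.9% of all genes, and limma-voom called 1, CDKN2C, and 482 of all genes. The groups did not overlap for 7 of 10, against 34.4% of all genes. Without cadmium replicate 1, limma called 8 of the 10 (CDKN1A, CDKN1C, CDKN2A, CDKN2B, CDKN2C and the 3 GADD45 genes) and 1605 genes in all, and without cadmium replicate 2 or 3 it called 0 of the 10. Replicate 1 had the lowest level of 6 of the 10 genes, so the count without it is not independent of its values. GSK4716 called 0 of 10 and 0% of all genes with limma, where limma-voom called 1, GADD45A, and 79 of all genes, and 6 of the 10 and 2404 of all genes had an unadjusted p under 0.05, with groups that did not overlap for 6, against 22.1% of all genes. DES called 5 of 10, all higher, where 29.6% of all genes were called and 16.7% were called higher. The groups did not overlap for 8 of 10, against 48.8% of all genes. Scaling by total fragments moved the share of higher calls among all calls from 64.5% to 49.3% with calcium and from 56.4% to 42.3% with DES.

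**Figure D3:**
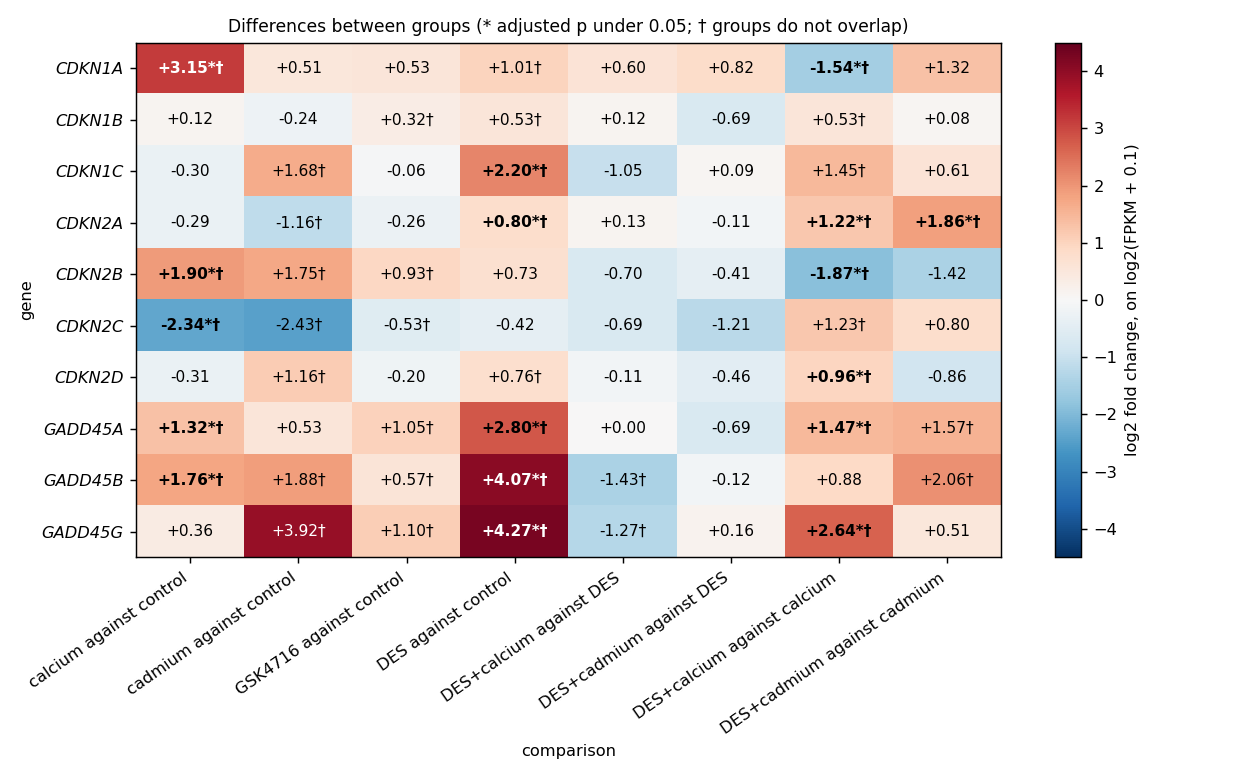
Log2 fold change on log2(FPKM + 0.1) for the 10 genes (rows) in the 8 comparisons of 2 groups (columns); a star marks a limma adjusted p under 0.05 and a dagger marks groups of 3 libraries that do not overlap. The values run from -2.43 (CDKN2C with cadmium) to 4.27 (GADD45G with DES), and stars are found in the calcium, DES, DES+calcium against calcium and DES+cadmium against cadmium columns.

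The combined treatments asked whether the metals act on these genes in the presence of the antagonist. On top of DES, calcium called 0 of the 10 genes by limma, where 0.136% of all genes were called. 2 of the 10 had an unadjusted p under 0.05 and groups that did not overlap, against 19.9% of all genes. These were GADD45B, at 21.5, 19.3 and 28.6 FPKM with DES+calcium against 56.4, 56.3 and 74.4 FPKM with DES (log2 fold change -1.43, SE 0.20, limma adjusted p = 0.096), and GADD45G, at 22.5, 16.7 and 26.9 FPKM against 50.7, 50.0 and 56.9 FPKM (-1.27, SE 0.20, limma adjusted p = 0.109). GADD45A was at 90.0, 115 and 71.7 FPKM, with a 95% interval of the log2 fold change from -0.48 to 0.48. CDKN1A at 24.0, 36.6 and 36.8 FPKM overlapped its DES libraries. Cadmium on top of DES called 0 of 10, where 0.266% of all genes were called, and 0 of the 10 had an unadjusted p under 0.05. No gene of the 10 had groups apart, against 16.2% of all genes. Spread between the DES+cadmium libraries was wide for CDKN2C (0.870 to 6.48 FPKM) and CDKN2A (4.33 to 12.0 FPKM).

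Set against calcium alone, DES+calcium called 6 of 10 genes, 4 higher and 2 lower, where 35.1% of all genes were called, 18.5% higher and 16.5% lower. CDKN1A fell from 57.9, 129 and 108 FPKM to 24.0, 36.6 and 36.8 FPKM, without overlap (log2 fold change -1.54, SE 0.33, limma adjusted p = 0.0145). It did not pass without calcium replicate 3 or without DES+calcium replicate 1. CDKN2B fell from 3.64, 1.99 and 5.23 FPKM to 0.804, 1.06 and 0.720 FPKM (-1.87, SE 0.39, limma adjusted p = 0.0134), a level that overlapped the control. GADD45G rose to 22.5, 16.7 and 26.9 FPKM (2.64, SE 0.31, limma adjusted p = 0.00274) and GADD45A rose by 1.47 (SE 0.19, limma adjusted p = 0.00338). The other 2 genes that rose were CDKN2A, at 9.08, 11.7 and 7.47 FPKM (1.22, SE 0.24, limma adjusted p = 0.0111), and CDKN2D, at 19.5, 18.6 and 20.3 FPKM (0.96, SE 0.17, limma adjusted p = 0.00743). Groups did not overlap for 9 of 10 genes, against 50.8% of all genes. Of the calls over all genes, 52.9% were higher, and 39.8% with scaling by total fragments. Set against cadmium alone, DES+cadmium called 1 of 10, where 9.89% of all genes were called (48.1% of these higher, and 25.6% with scaling by total fragments), and groups did not overlap for 3, against 40% of all genes. CDKN2A rose from 2.44, 1.83 and 2.05 FPKM to 12.0, 4.33 and 9.20 FPKM (1.86, SE 0.41, limma adjusted p = 0.0431), a call that was lost with any library left out except DES+cadmium replicate 2. GADD45A and GADD45B were also apart, with log2 fold changes of 1.57 and 2.06 and limma adjusted p-values of 0.0513 and 0.0508. GADD45G at 76.1, 50.0 and 52.9 FPKM overlapped its levels of 13.0 to 119 FPKM with cadmium alone.

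The effect of calcium with DES differed from that without DES for 4 of the 10 genes by the interaction test, where 3.63% of all genes were called, and all 4 differences were in the lower direction, with 2.38% of all genes called lower. GADD45B had the largest difference: its log2 fold change with calcium was 1.76 in the absence and -1.43 in the presence of DES, an interaction of -3.19 (SE 0.38, limma adjusted p = 0.00311). GADD45A changed by 1.32 without DES and by 0.00 with it (interaction -1.32, SE 0.23, limma adjusted p = 0.0164). For CDKN1A the effects were 3.15 and 0.60 (interaction -2.55, SE 0.54, limma adjusted p = 0.03) and for CDKN2B they were 1.90 and -0.70 (interaction -2.60, SE 0.58, limma adjusted p = 0.0348). The mean of the DES group was above that of the control for all 4 genes, so the effects with and without DES start from different levels. GADD45A and GADD45B were called with any single library left out. CDKN1A was lost without control replicate 1 or 2, calcium replicate 2 or 3, DES replicate 2 or 3, or DES+calcium replicate 1. CDKN2B was lost without control replicate 1 or 2, calcium replicate 1 or 3, DES replicate 2 or 3, or DES+calcium replicate 1 or 3. For CDKN2C the interaction was 1.64 (SE 0.52, limma adjusted p = 0.101) and for GADD45G it was -1.63 (SE 0.48, limma adjusted p = 0.083). The replicate number as a block was fitted to every group of this test, although the numbers were shown to pair only the libraries with DES. With this block, CDKN2C and GADD45G were both called (limma adjusted p = 0.0397 and 0.0424), and limma-voom called GADD45G (adjusted p = 0.0442). The cadmium interaction called 0 of 10 genes by limma, where 1.18% of all genes were called. Of the 10, 5 had an unadjusted p under 0.05, against 18.5% of all genes. GADD45G had an interaction of -3.76 (SE 0.88, limma adjusted p = 0.0647), which was -4.58 without cadmium replicate 1 (limma adjusted p = 0.0108), -2.99 without cadmium replicate 3 (limma adjusted p = 0.0855) and was called with the block (limma adjusted p = 0.0486). GADD45B had -2.01 (SE 0.56, limma adjusted p = 0.0965), which was -2.52 without cadmium replicate 1 (limma adjusted p = 0.0212) and -1.67 without cadmium replicate 3 (limma adjusted p = 0.184).

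**Figure D4:**
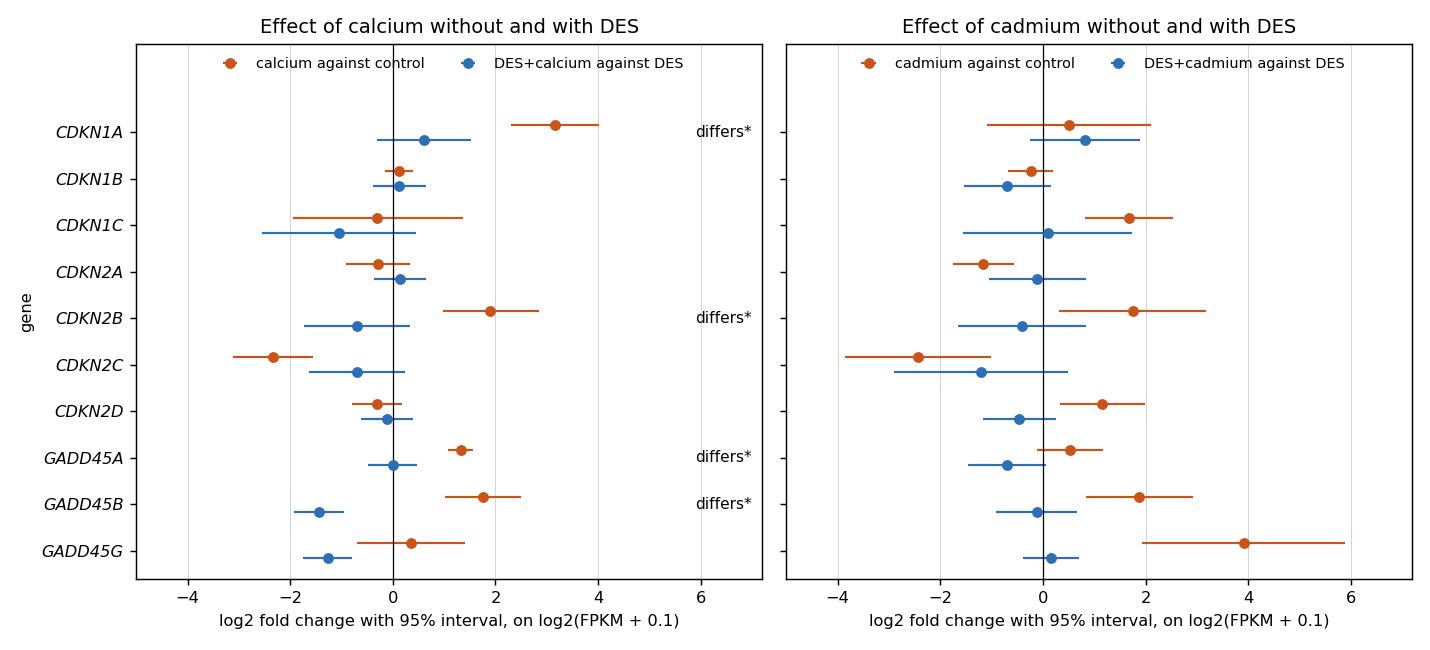
Log2 fold change on log2(FPKM + 0.1) with its 95% interval for each of the 10 genes, for calcium (left) and cadmium (right), without DES (orange, metal against control) and with DES (blue, metal plus DES against DES), and "differs" with a star marks a limma adjusted p under 0.05 for the interaction. GADD45B goes from 1.76 without DES to -1.43 with DES under calcium, and no gene is marked under cadmium.

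The kinases and cyclins that these inhibitors act on, and the RB and E2F genes, were described in the same comparisons, as lists chosen with earlier results known. Over the 7 lists, calcium called 22.5% of the 80 genes, against 7.12% of all genes, and DES called 32.5%, against 29.6% of all genes. Of 9 CDKs and cyclins tested, calcium called 0 higher and 1 lower (CDK4, from 30.0 ± 4.56 to 17.7 ± 1.69 FPKM, log2 fold change -0.75, limma adjusted p = 0.0405), with a list median of -0.87 against -0.01 over all genes, while 6 of the 9 had an unadjusted p under 0.05 and limma-voom called 5. With DES limma and limma-voom called 0 of the 9, 1 had an unadjusted p under 0.05, and the median was 0.01. DES+calcium against calcium called 5 of 9 higher, among them CDK1, from 8.51 ± 5.76 to 39.9 ± 8.55 FPKM (2.39, limma adjusted p = 0.00839). Of the 8 RB and E2F genes, calcium called 2 lower, E2F2 (-2.53, limma adjusted p = 0.0102) and E2F1 (-2.52, limma adjusted p = 0.0126), transcription factors that RB restrains. DES called 3 lower, E2F1, E2F2 and E2F3, of which E2F3 had the largest log2 fold change (-2.06, limma adjusted p = 0.00232). E2F1 and E2F2 also passed the calcium interaction test, at 2.40 and 2.53.

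Of 21 tested genes of the p53 family, its regulators and its targets, calcium called 3 higher and 1 lower, with a median of -0.08. PLK3 rose by 3.07 (limma adjusted p = 0.0132) and BBC3, which encodes the pro-apoptotic protein PUMA, by 1.71 (limma adjusted p = 0.0166), while TP73 fell by 1.31 (limma adjusted p = 0.042). DES called 3 higher and 0 lower, with BBC3 going from 1.94 ± 0.429 to 41.1 ± 13.2 FPKM (4.31, limma adjusted p = 0.000274), and SESN2 and TRIAP1 rising by 1.11 and 0.89. For the 12 neighbours and regulators of the INK4 locus, calcium called 2 higher, SMAD3 (1.37, limma adjusted p = 0.00951), which carries TGF-beta signals, and ETS2 (2.19, limma adjusted p = 0.0216). DES called 3 higher and 3 lower, including CBX7, a Polycomb protein, which fell by 2.26 (limma adjusted p = 0.00261), and SMAD3, which fell by 0.88 (limma adjusted p = 0.0129). SMAD3 also passed the calcium interaction test (-1.29, limma adjusted p = 0.0153).

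Of 10 genes for CDKN1B regulation and turnover, DES called 4 higher, with FOXO1, a transcription factor of CDKN1B, rising by 2.14 (limma adjusted p = 0.00228) and CKS1B, a cofactor of p27 degradation, by 0.89 (limma adjusted p = 0.0123). Calcium called FOXO1 higher (1.53, limma adjusted p = 0.026) and CKS1B lower (-1.31, limma adjusted p = 0.00951). Of 8 tested GADD45 partners, calcium called 1 lower, PCNA, from 134 ± 37.2 to 39.1 ± 4.41 FPKM (-1.75, limma adjusted p = 0.0138), and DES called 3 lower, PCNA, MAP3K4 and MAPK14. Of the 12 stress transcription factors known to act on CDKN1A or GADD45 genes, calcium called 6 higher and 0 lower, with a median of 1.92 against -0.01 over all genes. FOS went from 0.420 ± 0.0819 to 164 ± 98.3 FPKM (8.15, limma adjusted p = 0.00481), ATF3 from 1.91 ± 0.693 to 115 ± 104 FPKM (5.52, limma adjusted p = 0.0123) and EGR1 from 10.2 ± 9.55 to 156 ± 49.3 FPKM (4.27, limma adjusted p = 0.0229). DES called 6 of the 12 higher and 1 lower, with ATF3 at 41.1 ± 9.31 FPKM (4.39, limma adjusted p = 0.000331), FOS at 11.2 ± 7.88 FPKM (4.21, limma adjusted p = 0.00232) and JUN at 231 ± 22.5 FPKM against 25.9 ± 13.7 FPKM (3.26, limma adjusted p = 0.0014). The calcium interaction called 5 of the 12 lower, led by ATF3 (-5.48, limma adjusted p = 0.00446), FOS (-4.41, limma adjusted p = 0.0109) and JUN (-3.20, limma adjusted p = 0.00457). Over the 7 lists it called 3 of the 80 genes higher and 10 lower, or 16.2%. Of all genes, 3.63% were called and 2.38% were called lower. Cadmium and GSK4716 called none of the 80 genes of the 7 lists by limma. Of the 80, 27 and 33 had an unadjusted p under 0.05, against 25.9% and 16.4% of all genes. By limma-voom 2 and 5 of the 80 were called, and 482 and 79 of all genes. From these lists, the study's own test on read counts listed ATF3, PCNA, TP73, RBL1, CCNE1 and CCNE2 as changed with calcium, cadmium and GSK4716 alike. With cadmium the median was -1.50 for the CDKs and cyclins, -0.98 for the RB and E2F genes and 1.01 for the stress transcription factors, against 0.04 over all genes.

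DES+calcium against calcium called 18 of the 80 genes higher and 9 lower, which is 33.8% of the lists and close to the 35.1% called over all genes. In the RB and E2F list 2 were higher and 1 lower, in the p53 list 3 and 1, in the INK4 list 3 and 2, in the CDKN1B list 3 and 1, and among the stress transcription factors 2 and 4. Besides CDK1, the largest changes were KLF6 (-3.20, limma adjusted p = 0.00175), a zinc finger factor that can raise CDKN1A, CKS1B (2.47, limma adjusted p = 0.00167), CBX7 (-2.25, limma adjusted p = 0.0174) and SMAD3 (-2.17, limma adjusted p = 0.00167). DES+cadmium against cadmium called 8.75% of the 80 genes against 9.89% of all genes, 2 higher (CCND3 and ZBTB17) and 5 lower (E2F5, TP53INP1, ZMAT3, CBX7 and SP1). The remaining calls of the calcium interaction were BBC3 (-2.85), BTG2 (-1.93), FOXO1 (-2.04), CKS1B (1.58) and MAP2K3 (-1.31), besides KLF6 (-3.10) and KLF4 (-2.28), which are named because they complete the count. The cadmium interaction called CCND3 (1.57) higher and FOXO1 (-2.58) lower. On top of DES, calcium and cadmium called none of the 80 genes by limma or limma-voom, and 10 and 9 had an unadjusted p under 0.05.

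Across the 21 libraries, the GADD45 genes went together, with Pearson correlations of log2(FPKM + 0.1) of 0.82 between GADD45B and GADD45G, 0.81 between GADD45A and GADD45B and 0.59 between GADD45A and GADD45G. CDKN1C was also close to GADD45G, at 0.82. The lowest correlations were -0.69 between CDKN2B and CDKN2C and -0.63 between CDKN2A and CDKN2B, the latter pair being neighbours on chromosome 9. The 21 points share treatment groups of 3, so these values describe the groups as much as the genes and are given with no test. Among all genes with a mean of at least 1 FPKM, those nearest to GADD45A were MEAF6 (0.963), DUSP10 (0.944) and SLC25A25 (0.944), and those nearest to GADD45B were CDH1 (0.961), TUFT1 (0.954) and PARD6G-AS1 (0.95). GADD45G was nearest to HSPA7 (0.935), CASC3 (0.923) and ZFAND2A (0.923). For CDKN1A the nearest genes were DAPK2 (0.884), MPZL3 (0.876) and STX1A (0.874), and for CDKN2B KRTAP5-AS1 (0.895), LYST (0.877) and NBPF15 (0.856). CDKN2A was nearest to MRPS2 (0.96), SNRPF (0.96) and SSRP1 (0.958), and CDKN2C to EMC3-AS1 (0.873), NCAPD3 (0.851) and WDR76 (0.85). CDKN1B had RBM43 (0.835), CDKN3 (0.835) and MND1 (0.832), CDKN1C had AC068580.1 (0.909), PLCD1 (0.868) and GLUL (0.826), and CDKN2D had DHRS2 (0.80), AC108693.2 (0.796) and PHC1 (0.783).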

How the data were processed

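Poly(A) RNA of MDA-MB-453 cells was sequenced in 21 libraries. Clean reads were aligned to GRCh38.p14, and the authors deposited gene-level FPKM values; the submitters' processing notes name HISAT2 2.0.5 and featureCounts 1.5.0-p3. FPKM values were whole multiples of 1 fragment for 100% of values (tolerance 0.1 fragment), which gave the depth of each library, 14435925 to 28424805 fragments on genes.

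Groups came from the labels. The 10 genes were taken by symbol, and the genes and gene lists were chosen with earlier results of these data known. The 14686 genes that averaged 0.5 FPKM or more over the libraries were tested on log2(FPKM + 0.1) with limma 3.58.1 in R 4.3.3 (eBayes with a trend, groups of the comparison only), adjusted by Benjamini-Hochberg over all genes tested and called at an adjusted p under 0.05. An interaction subtracts the metal's log2 fold change in the absence of DES from that in its presence. The method was tested on simulated data. Alternatives were a pseudocount of 1, no filter (genes with at least 1 fragment in the libraries compared) or an average of 2 FPKM or more, scaling by median ratios, scaling by total fragments, all 7 groups in 1 fit, the replicate number as a block, limma-voom on recovered fragments, and each library left out. Named genes were the 10 members, the 3 genes most correlated with each, and from each list up to 3 called genes a comparison with the largest fold change. Same-numbered libraries were taken as paired where the correlation of their deviations was over 0.1 in each of the 3 pairs, which held for DES+calcium against DES (correlations 0.132, 0.103 and 0.28) and DES+cadmium against DES (0.472, 0.121 and 0.313). The pairing there comes from the replicate numbers of the titles.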

Additional observations from a re-analysis of the deposited data

Results flagged for a closer look

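The effect of calcium differed with and without DES for 4 of the 10 genes by the test of the interaction itself (limma, adjusted over 14686 genes). The difference in log2 fold change was -3.19 for GADD45B (95% interval -4.01 to -2.37), -2.60 for CDKN2B (-3.88 to -1.32), -2.55 for CDKN1A (-3.73 to -1.37) and -1.32 for GADD45A (-1.84 to -0.81). Each was higher with calcium than in the control in 3 of 3 libraries when DES was absent. In the fit of all 7 groups the difference was called for GADD45B (adjusted p = 0.00986), and not for CDKN2B (adjusted p = 0.0794), GADD45A (adjusted p = 0.101) or CDKN1A (adjusted p = 0.108). The heat shock gene HSPA1A, looked at after its values were seen, was at 858 to 993 FPKM with DES and 716 to 1020 FPKM with DES+calcium, and at 100 to 241 FPKM with calcium alone, against 29.2 to 44.1 FPKM in the control, and its part in these differences was not tested. Groups of 3 libraries were not tested for outlying samples.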

How the results depend on the processing

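Of 52 results for single genes, each a difference that was called, did not overlap or had an unadjusted p under 0.05, none turned its direction in 785 alternative values. A call was lost in 65 of them and gained in 50. Where the groups compared do not overlap, leaving out a library or changing the pseudocount or filter cannot turn the direction. The lack of turns was thus largely fixed by how the results were chosen and is not read as support. Of the 21 calls, 9 held in each alternative: the 3 GADD45 genes with DES, CDKN2A, CDKN2B, CDKN2D, GADD45A and GADD45G for DES+calcium against calcium, and the calcium interaction of GADD45B. The causes of the changes below were not tested.

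With all 7 groups in 1 fit, 6 of the 10 genes were called for cadmium, 5 for DES+cadmium against cadmium, 1 for the calcium interaction and 3 for the cadmium interaction. With no filter, 3 were called for DES, 0 for DES+cadmium against cadmium and 2 for the calcium interaction. For DES+cadmium against cadmium, a pseudocount of 1, a mean FPKM of at least 2 and limma-voom each called 3, and scaling by total fragments called 0. Scaling by total fragments called 1 for the cadmium interaction, and limma-voom called 1 for cadmium and 1 for GSK4716.

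With the replicate block, 2 genes were called for calcium (CDKN1A and GADD45A) and 0 for DES+cadmium against cadmium, where the numbers were not shown to pair the libraries. It called 6 for the calcium interaction and 1 for the cadmium interaction, whose libraries paired in the arms with DES and not in the arms without it. In the 2 comparisons of groups with DES where they paired, the block called 0 of the 10 genes, as without it, and 0 genes in all against 20 and 39.

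Leaving out each library in turn gave 0 to 4 called genes for calcium, 0 to 8 for cadmium, 3 to 8 for DES, 5 to 7 for DES+calcium against calcium, 0 to 1 for DES+cadmium against cadmium, 2 to 5 for the calcium interaction and 0 to 2 for the cadmium interaction. Over all genes, calls numbered 1046 for calcium against 648 with no filter, 260 with the block, 1582 with limma-voom and 7 to 758 with a library left out. For cadmium they numbered 22 against 1026 with all 7 groups in 1 fit and 482 with limma-voom. For DES+cadmium against cadmium they numbered 1453 against 5459 with all 7 groups, 22 with no filter and 0 with the block. They fell to 0 without cadmium replicate 1, 2 or 3 or DES+cadmium replicate 3, and were 1052 and 676 without DES+cadmium replicates 1 and 2. For the calcium interaction they numbered 533 against 180 with all 7 groups and 227 with no filter. An arm left with 2 libraries shares the spread of the other. Scaling by total fragments moved the median log2 fold change of all genes by -0.31 for DES+cadmium against cadmium, -0.20 for DES+cadmium against DES, -0.18 for DES+calcium against calcium, -0.17 for DES, -0.15 for the cadmium interaction, -0.13 for DES+calcium against DES and -0.11 for calcium. CDKN1C, at 0 to 165 fragments a library, had the least depth.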
